A study of Mus musculus with 12 samples.

Results

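Hepatic steroid-metabolising enzymes were examined in female mouse livers as 10 named genes, Hsd3b2, Hsd3b3, Hsd3b5, Hsd3b6, Hsd11b1, Hsd17b2, Hsd17b6, Hsd17b13, Srd5a1 and Akr1c6, out of 55401 genes in a table of raw RNA-seq counts. The members were given by name and all 10 had a row in the table. The libraries came from 6 iTgMir483 livers and 6 livers of control littermates, all female, 15 weeks old and on a C57BL/6J background. iTgMir483 mice carry a single copy of Mir483, the microRNA gene inside Igf2, under a Tet-off promoter at the Rosa26 locus together with its transactivator, so that Mir483 is transcribed unless doxycycline is present. The breeding dams received doxycycline during pregnancy and it was stopped at birth, so expression was post-natal, reached levels above the physiological range and was not limited to the liver. All 12 labels name the cross of the transgene with CMV-Cre, a ubiquitous Cre used to remove a selection cassette, and which alleles of that Cre each control carried is not given in the sources used here.

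Liver does not make steroid hormones from cholesterol in quantity, but it converts and clears those that arrive from the adrenal glands and gonads. Hydroxysteroid dehydrogenases interconvert hydroxyl and keto groups and so switch glucocorticoids, androgens and oestrogens between active and inactive forms. Reductases of the Srd5a and Akr1c families saturate or reduce the steroid skeleton, and cytochromes P450, sulfotransferases and glucuronosyltransferases then prepare the products for excretion. In rodents many of these enzymes differ between the sexes, a pattern set by the growth hormone rhythm.

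The Hsd3b genes lie side by side on chromosome 3 and are close copies, which bears on how their reads could be assigned. From Hsd3b5 (98618634 to 98630252) the order along the chromosome is Hsd3b2 (98709255 to 98724543), Hsd3b3 (98741523 to 98763127) and Hsd3b6 (98805504 to 98814443), all on the minus strand of GRCm38. Their coding sequences were each 1119 bases long in the GENCODE M21 transcripts. Hsd3b2 was 95.1% identical to Hsd3b3 and 94.4% to Hsd3b6, whereas Hsd3b5 was 80.4% to 80.9% identical to the other three. The first 90 coding bases, from the start codon, are shown because they make this visible, and capitals mark the bases that differ from Hsd3b5.
Hsd3b5: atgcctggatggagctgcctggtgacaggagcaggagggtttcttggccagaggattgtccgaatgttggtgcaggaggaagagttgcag
Hsd3b2: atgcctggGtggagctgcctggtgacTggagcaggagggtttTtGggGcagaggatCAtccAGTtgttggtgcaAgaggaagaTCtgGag
Hsd3b3: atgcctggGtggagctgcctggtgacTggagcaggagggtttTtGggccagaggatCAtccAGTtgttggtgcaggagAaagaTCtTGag
Hsd3b6: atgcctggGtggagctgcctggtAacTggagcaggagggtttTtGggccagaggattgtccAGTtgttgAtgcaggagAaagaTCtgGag
Hsd3b2 and Hsd3b3 each differed from Hsd3b5 at 14 of these bases and Hsd3b6 at 13. Of all windows of 50 bases (the read length) in the protein-coding transcripts, 25.1% of those of Hsd3b2, 25.0% of Hsd3b3, 21.2% of Hsd3b5 and 16.0% of Hsd3b6 also occurred in another gene. Windows of Hsd17b6 were shared at 12.1%, each of them with both Rdh1 and Rdh16f1, and those of Srd5a1 at 16.5%, all with the overlapping Gm17108. Akr1c6 shared 1.68%, Hsd17b13 0.51%, and Hsd11b1 and Hsd17b2 none.

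The mature products of the transgene are shown with the seed, bases 2 to 8, in capitals, because the seed is the part that pairs with target messages.
miR-483-3p: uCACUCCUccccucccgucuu
miR-483-5p: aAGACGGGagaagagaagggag
The longest annotated 3′ untranslated region of each of the 10 genes was searched for the 7-base match to each seed. None held AGGAGTG, the match to miR-483-3p, which occurs in 10.6% of 20979 genes, and none held CCCGTCT, the match to miR-483-5p, which occurs in 2.66%. The shorter match GGAGTG, to bases 2 to 7 of miR-483-3p, occurred in Hsd17b13 and Srd5a1, against 26.6% of all genes. Each is printed with the match in capitals.
Hsd17b13, chr5:103955682-103955687, minus strand: gctcagtccagGGAGTGgcactac
Srd5a1, chr13:69574762-69574767, minus strand: ctggagctgtgGGAGTGtggccca
Neither of the genes that hold it was changed between the groups, and the letters alone do not make a site.

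The labels were checked at the transgene. Mir483 was at 0 counts in every control library and at 318 to 761 counts in the 6 iTgMir483 libraries. Igf1, the growth factor gene the study followed, was 399.5 ± 99.7 CPM in controls and 140.7 ± 40.03 CPM in iTgMir483 livers (SD, n = 6; log2 fold change -1.51, adjusted p 0.000371, edgeR's quasi-likelihood test). CPM are counts relative to a library size scaled by TMM, a trimmed mean of log ratios between libraries. Library totals were 12244123 to 30431286 counts for the control group and 12415140 to 15846175 for the iTgMir483 group. The replicate 1 library of each group stood apart from the others on principal component 2, which held 16% of the variance (at 46.4 and 40.7 against 2.89 or less elsewhere), so results that rest on them are given with and without them. Hepatocyte markers were abundant throughout, with a summed level of 128868 to 181941 CPM in controls and 68649 to 137792 CPM in iTgMir483 livers, and 2 of 8 were lower, Cps1 and Tdo2. Of the adrenal cortex markers, Cyp11b1 and Mc2r had no count in any library, Cyp11a1, Cyp21a1 and Nr5a1 had at most 2, and Star had 14 to 54 (adjusted p 0.558 between the groups).

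Of the 10 enzymes, 8 passed the filter on low counts, and 2 of these changed, both lower in iTgMir483 livers: Hsd17b6 and Akr1c6. The call required a fold change over 1.5 and, over all genes, a p under 0.05 after Benjamini-Hochberg adjustment. Of 13205 genes tested, 1470 (11.1%) changed by this rule, 360 of them lower (2.73%) and 1110 higher (8.41%). No enzyme of the set was higher, by edgeR, DESeq2 or limma-voom, and 0 were higher at an unadjusted p under 0.05. The median log2 fold change of the 8 was -0.19, against 0.0058 over all genes tested. The groups overlapped in each of the 8, where they did not overlap in 1046 of all genes tested (7.92%).

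**Figure D1:**
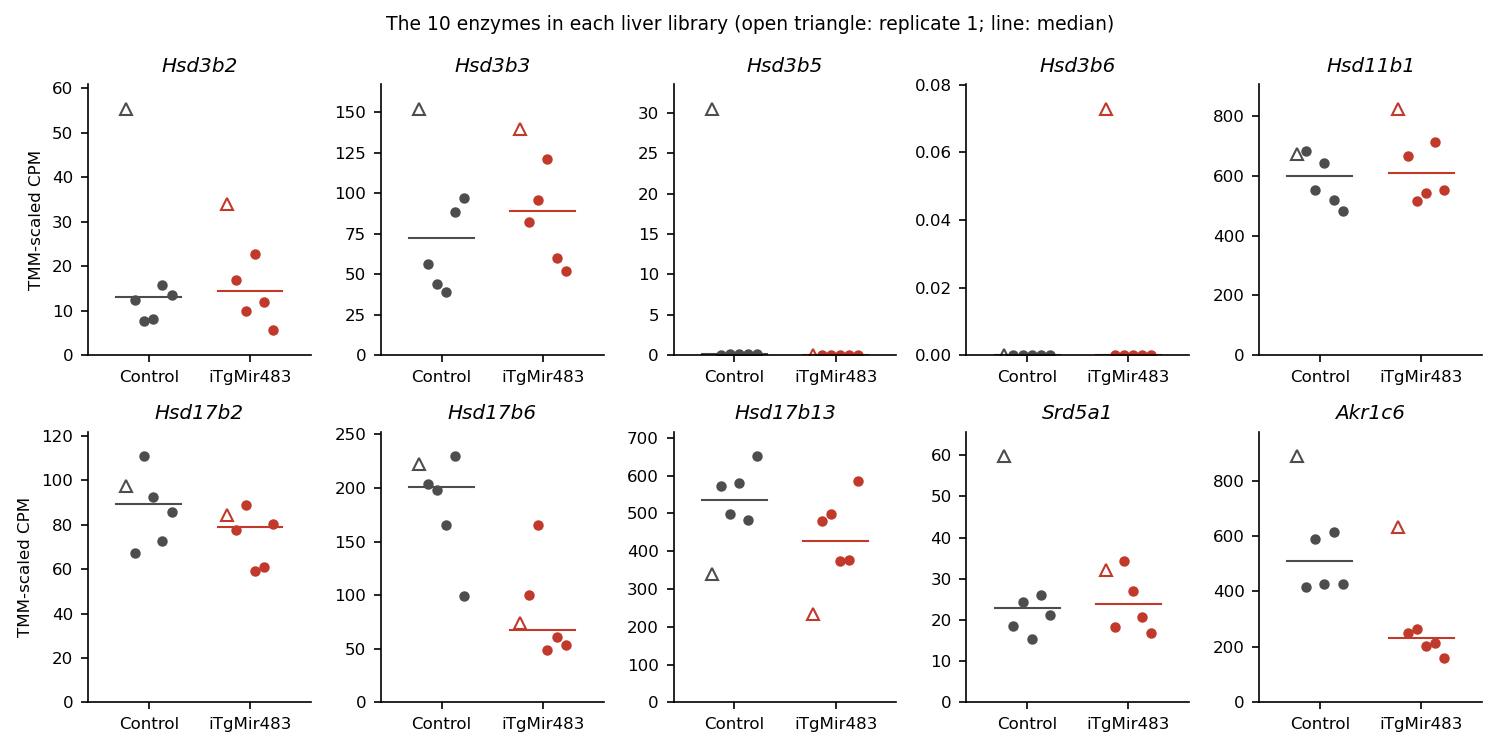
TMM-scaled CPM (vertical axis, linear from 0) of each enzyme in the 6 Control and 6 iTgMir483 livers, with the median as a line and the replicate 1 library of each group as an open triangle. Hsd17b6 lay lower in iTgMir483 livers with some overlap, Akr1c6 lay lower in 5 of 6, and Hsd3b5 was above 1 CPM in control replicate 1 alone.

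Hsd17b6 encodes a short-chain dehydrogenase close to the retinol dehydrogenases, which oxidises 3α-androstanediol and so acts on the products of dihydrotestosterone. The gene lies on chromosome 10, 127990936 to 128007611, minus strand (GRCm38; ENSMUSG00000025396). Controls had 99.4 CPM at the lowest, a median of 201.0 and 229.4 at the highest, and iTgMir483 livers had 48.8, 67.5 and 165.1 CPM. All 6 iTgMir483 livers lay below the control median and 4 of them below every control. The groups overlapped because control replicate 6 was low at 99.4 CPM, and because iTgMir483 replicates 2 and 3 were at 99.7 and 165.1 CPM. The means were 186.6 ± 48.2 and 83.7 ± 43.9 CPM (SD, n = 6), a 2.23-fold lower level by the fit (log2 fold change -1.16, SE 0.285, 95% interval -1.77 to -0.55, adjusted p 0.0127). A two-sided exact permutation test of the mean log2 CPM over all assignments of the 12 mice gave p 0.0065, unadjusted, where the smallest possible is 0.0022. Without both replicate 1 libraries the log2 fold change was -1.07 (adjusted p 0.0325), and the call held without any single library. Of the genes with which it shares windows, Rdh1 had 2 to 24 counts in any library and Rdh16f1 had 0.

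Akr1c6 encodes an aldo-keto reductase that acts as a 17β-hydroxysteroid dehydrogenase on oestradiol and testosterone. It lies on chromosome 13, 4434306 to 4457877, plus strand (ENSMUSG00000021210). Controls had 415.2 CPM at the lowest, a median of 508.2 and 887.0 at the highest, and iTgMir483 livers had 158.6, 232.7 and 632.9 CPM. Replicate 1 was the highest library of each group, and iTgMir483 replicate 1, at 632.9 CPM, was above all controls but replicate 1. The other 5 iTgMir483 livers, at 264.7 CPM or less, lay below every control. The means were 559.6 ± 182.7 and 287.8 ± 173.1 CPM (SD, n = 6), a 1.94-fold lower level by the fit (log2 fold change -0.96, SE 0.306, 95% interval -1.61 to -0.31, adjusted p 0.0413). The exact permutation p was 0.0130, two-sided and unadjusted. This adjusted p lay near the threshold, and leaving out any single one of 9 libraries raised it to between 0.0531 and 0.0810, with log2 fold changes from -1.03 to -0.78. These were control replicates 1, 3, 4 and 5 and iTgMir483 replicates 2 to 6. Without both replicate 1 libraries the log2 fold change was -1.18 (adjusted p 0.000661).

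The 250 bases before the RefSeq start of both genes (GRCm38.p6) are shown, since these were the enzymes that changed, with that of Hsd3b5, whose counts set a single library apart. Promoter windows were found for 9 of the 10 enzymes. Only the first listed start of each gene was used. Hsd17b6 and Hsd3b3 each had 2 starts, and the other start was not searched. The windows were searched on both strands for TTCNNNGAA, the STAT5 motif, TGTTCT, the hexamer of the glucocorticoid receptor, and CAAAGT, from the HNF4 motif, with matches in capitals.
Hsd17b6, chr10:128007612-128007861, minus strand: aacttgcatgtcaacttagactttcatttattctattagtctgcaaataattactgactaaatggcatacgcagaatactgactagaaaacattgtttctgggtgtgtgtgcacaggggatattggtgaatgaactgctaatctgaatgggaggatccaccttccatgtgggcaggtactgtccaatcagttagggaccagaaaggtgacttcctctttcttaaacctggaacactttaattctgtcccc
Akr1c6, chr13:4434093-4434342, plus strand: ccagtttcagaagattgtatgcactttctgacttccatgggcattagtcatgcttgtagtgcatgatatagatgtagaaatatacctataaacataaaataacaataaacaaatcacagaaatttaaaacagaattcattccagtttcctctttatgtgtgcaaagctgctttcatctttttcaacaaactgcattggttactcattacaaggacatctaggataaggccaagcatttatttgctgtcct
Hsd3b5, chr3:98645535-98645784, minus strand: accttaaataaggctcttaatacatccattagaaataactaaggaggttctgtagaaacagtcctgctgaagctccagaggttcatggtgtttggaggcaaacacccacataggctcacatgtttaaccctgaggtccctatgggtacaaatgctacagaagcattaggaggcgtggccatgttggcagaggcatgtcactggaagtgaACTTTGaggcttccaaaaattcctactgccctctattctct
The window of Hsd3b5 holds CAAAGT once, on the other strand, and the windows of Hsd17b6 and Akr1c6 hold none of these letters. Over the 9 enzymes TTCNNNGAA was in 0 (7.18% of 27025 promoters), TGTTCT in 2, Hsd3b2 and Hsd3b6 (16.2%), and CAAAGT in 4, Hsd3b5, Hsd3b6, Hsd17b13 and Srd5a1 (12.5%). The RefSeq start of Hsd3b5 lies upstream of the GENCODE M21 gene, which spans 98618634 to 98630252.

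**Figure D2:**
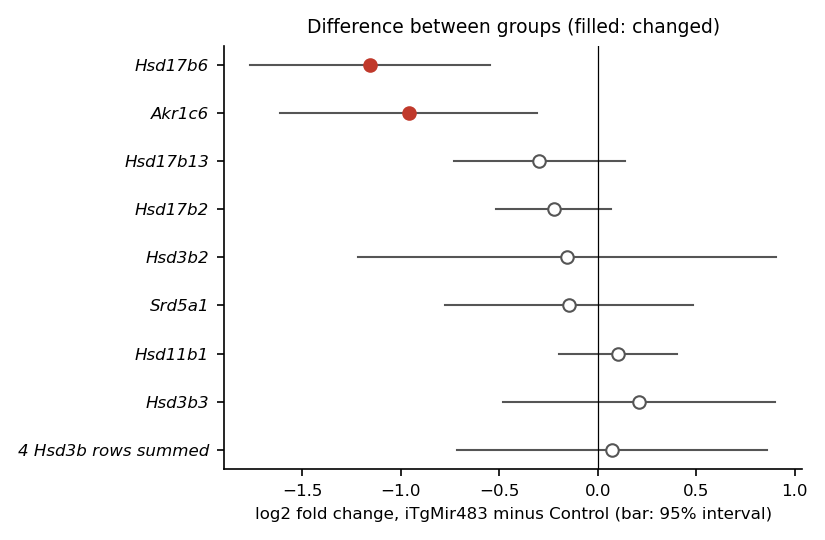
Log2 fold change (iTgMir483 minus Control, horizontal axis) of the 8 tested enzymes and of the 4 Hsd3b rows summed, with 95% intervals from edgeR's quasi-likelihood fit over 12 livers; filled points were called changed. The intervals of Hsd17b6 and Akr1c6 lie below 0, and those of the others cover 0.

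The 3β-hydroxysteroid dehydrogenases turn a 3β-hydroxyl into a keto group in the making of active steroids, and in mouse liver Hsd3b5 instead works as a reductase of 3-ketosteroids and marks males. Hsd3b3 carried most of the family's counts, from 63.9% to 90.5% of the sum in each library. In controls Hsd3b3 had 39.1 CPM at the lowest, a median of 72.5 and 151.9 at the highest, and in iTgMir483 livers 51.9, 89.0 and 139.6 CPM. The fit gave a log2 fold change of 0.21 (SE 0.323, 95% interval -0.48 to 0.90, adjusted p 0.692), with all iTgMir483 livers inside the range of the controls. Its highest library in each group was replicate 1.

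Hsd3b2 was the minor form, at 9.42% to 23.3% of the summed counts. Controls had 7.60 CPM at the lowest, a median of 13.0 and 55.3 at the highest, and iTgMir483 livers had 5.57, 14.5 and 34.1 CPM. Replicate 1 was again the highest of each group, and control replicate 1 was above the rest, which reached 15.8 CPM. The log2 fold change of -0.16 (SE 0.497, adjusted p 0.857) had an interval of -1.22 to 0.91, the widest of the set, and its sign turned to 0.55 without control replicate 1 (adjusted p 0.309).

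Hsd3b5 did not pass the filter and was seen in quantity in 1 library. Control replicate 1 had 486 counts (30.5 CPM) and the other 5 controls had 1, 2, 6, 2 and 1 counts. The iTgMir483 libraries had 1, 1, 1, 0, 0 and 0 counts, where a count of 0 allows up to 3. The 11 other libraries were thus at or near the floor, and a difference between groups was not detectable at this depth outside that library. With no filter Hsd3b5 was called changed (adjusted p 0.0131), and without control replicate 1 it was not (adjusted p 0.202). In that library Hsd3b5 made up 12.8% of the summed Hsd3b counts. Hsd3b6, the form best known from the adrenal cortex and testis, had 1 count in iTgMir483 replicate 1 and 0 in the 11 others.

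Other male-biased transcripts were also high in control replicate 1, and several in iTgMir483 replicate 1. All 9 tested genes of a list of male-biased liver genes had their highest control value there, where 25.1% of all genes tested did, and 6 of the 9 had their highest iTgMir483 value in replicate 1 of that group, where 19.4% of all genes did. Cyp4a12a, a male-type arachidonic acid hydroxylase, had 774 counts in control replicate 1 and 5 to 16 in the other controls. Female-biased transcripts went the other way, and 0 of 16 tested genes of such a list had their highest control value there. The female-biased Cyp3a16 and Cyp3a41a had 1 and 2 counts in control replicate 1, the lowest of the controls, which reached 1221 and 3344. The Y-linked genes Uty, Kdm5d, Eif2s3y and Ddx3y were at 0 in all 12 libraries, and Xist was 486.9 CPM in this library against 455.6 to 887.4 CPM over all controls. What set this library apart was not tested.

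Because reads that match several copies may be misassigned or left uncounted, the 4 Hsd3b rows were also summed. The sum cannot recover reads that were left uncounted. The sum was 103.5 ± 70.8 CPM in controls and 108.8 ± 43.7 CPM in iTgMir483 livers (SD, n = 6), with a log2 fold change of 0.07 (SE 0.370, 95% interval -0.72 to 0.86, adjusted p 0.913). It was highest in replicate 1 of both groups, at 237.7 and 173.8 CPM. Without control replicate 1 the log2 fold change was 0.50 (adjusted p 0.238), and without both replicate 1 libraries 0.32 (adjusted p 0.433).

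Hsd11b1 regenerates active corticosterone from its inert keto form in the endoplasmic reticulum, with NADPH supplied by H6pd (Hsd11b1 spans 193221634 to 193264075 on chromosome 1). Controls had 483.6 CPM at the lowest, a median of 599.8 and 682.5 at the highest, and iTgMir483 livers had 517.8, 611.9 and 824.3 CPM. Its values were tight within groups, and 2 iTgMir483 livers, replicates 1 and 5, lay above every control. The fit gave a log2 fold change of 0.10 (adjusted p 0.650, SE 0.141) and its interval, -0.20 to 0.41, was the narrowest but one. Its partner H6pd was 465.2 ± 110.9 CPM in controls and 522.6 ± 119.2 CPM in iTgMir483 livers (SD, n = 6; log2 fold change 0.17, adjusted p 0.557). Hsd11b2, which inactivates glucocorticoids in kidney, did not pass the filter.

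Of the other 17β-hydroxysteroid dehydrogenases among the members, Hsd17b2 oxidises testosterone and oestradiol to less active ketones (chromosome 8, 117701904 to 117759027). It was 67.4 CPM at the lowest, 89.2 at the median and 110.7 at the highest in controls, and 59.3, 78.8 and 89.0 CPM in iTgMir483 livers. All 6 iTgMir483 livers lay below the control median, 2 of them below every control, yet the log2 fold change of -0.22 (SE 0.136, 95% interval -0.51 to 0.07) did not pass (adjusted p 0.275). Hsd17b13 is a protein of lipid droplets, known from fatty liver, with retinol dehydrogenase activity (chromosome 5, 103955440 to 103977410). It was 340.8, 535.4 and 651.2 CPM in controls (lowest, median, highest) and 233.3, 428.4 and 585.0 CPM in iTgMir483 livers. In both groups the lowest library was replicate 1, whereas that library was the highest of each group for Hsd3b2, Hsd3b3 and Akr1c6. Its log2 fold change was -0.30 (SE 0.202, 95% interval -0.73 to 0.14, adjusted p 0.329).

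Srd5a1 is the 5α-reductase of liver, which converts testosterone to dihydrotestosterone and starts glucocorticoid clearance (chromosome 13, 69573449 to 69611442). Controls had 15.4 CPM at the lowest, a median of 22.8 and 59.7 at the highest, and iTgMir483 livers had 16.8, 23.9 and 34.3 CPM. Control replicate 1 was the only liver above 34.3 CPM. The log2 fold change of -0.15 (SE 0.296, 95% interval -0.78 to 0.49, adjusted p 0.770) turned to 0.24 without that library (adjusted p 0.427). The exact permutation p of the 6 enzymes that were not called lay between 0.167 (Hsd17b2) and 0.981 (Hsd3b2), two-sided and unadjusted.

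Compared per kilobase of the longest coding transcript (RPKM, from TMM-scaled CPM), the enzymes spanned a wide range of levels. In controls Akr1c6 was highest at 400.9 ± 130.9 RPKM, followed by Hsd11b1 at 365.3 ± 52.1 and Hsd17b13 at 305.1 ± 62.9 RPKM (SD, n = 6), and the ranges of these neighbours overlapped. Hsd17b6 followed at 122.6 ± 31.7 RPKM, below all values of Hsd17b13. Hsd17b2 and Hsd3b3, at 66.5 ± 12.1 and 51.9 ± 27.7 RPKM, overlapped with each other, and Hsd17b2 overlapped with Hsd17b6. Srd5a1 at 10.4 ± 6.13 and Hsd3b2 at 5.10 ± 4.91 RPKM were the lowest of the enzymes seen in every liver. In iTgMir483 livers the order began with Hsd11b1 at 392.5 ± 73.9 RPKM, then Hsd17b13 at 248.5 ± 72.1 and Akr1c6 at 206.2 ± 124.0 RPKM, whose ranges overlapped one after the other. Hsd3b3, Hsd17b2 and Hsd17b6 formed a group of overlapping levels at 59.9, 57.0 and 55.0 RPKM. The value of Hsd3b2 depends on a transcript of 3695 bases with a long 3′ untranslated region; per coding base, which is equal for the family, it also lay below Hsd3b3 in all 12 livers.

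**Figure D3:**
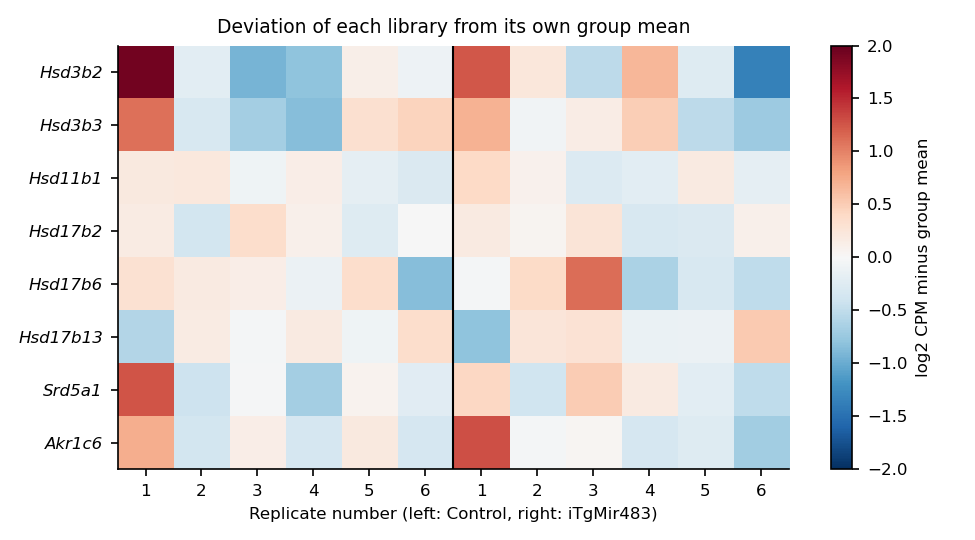
Deviation of log2 CPM from the group's own mean (colour, -2 to 2) for the 8 tested enzymes in 6 Control libraries (left) and 6 iTgMir483 libraries (right). The first column of each group, replicate 1, is above its group mean for Hsd3b2, Hsd3b3, Srd5a1 and Akr1c6 and below it for Hsd17b13.

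Variation among livers of the same group was shared by several enzymes. After each group's mean was subtracted, Hsd3b2 and Hsd3b3 had a Pearson r of 0.89 over 12 libraries, and of 0.79 over the 10 without replicate 1. These copies share sequence, and how reads that match both were counted is not given in the sources used here. Hsd17b13 went the opposite way to Akr1c6 (r = -0.87, and -0.49 without replicate 1) and to Hsd3b2 (-0.81 and -0.53). Srd5a1 and Akr1c6 had 0.71 and 0.67, and Hsd17b6 and Akr1c6 had 0.37 and 0.70. These are descriptions over libraries that share depth and mouse, and no test was made. By the same measure the transcripts most like each enzyme over the 12 libraries were Osbpl9, Wbp1 and Sqor for Hsd3b2 (0.94 to 0.96), Abtb1, Rnf19b and Wdpcp for Hsd3b3 (0.91 to 0.93), and Nars2, Ppp2r1b and Il15 for Hsd11b1 (0.88 to 0.89). They were Lgals9 and Tada1 for Hsd17b2 (0.88 to 0.89), Loxl1, Efemp1 and Caprin2 for Hsd17b6 (0.86 to 0.88), and Ccdc62, 1700086O06Rik and Fam57b for Hsd17b13 (0.94 to 0.98). For Srd5a1 they were Calm3, Wdpcp and Abca8a (0.91 to 0.93), and for Akr1c6 Car3, Cyp2c50 and Tmem29 (0.95 to 0.97).

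Other genes that handle steroids give the setting of these values. Of 67 listed genes outside the members, 47 were tested and 14 changed (29.8%, against 11.1% of all genes), 13 lower and 1 higher, with a median log2 fold change of -0.21. The list was chosen with earlier results of these data known, so this share describes it and is no test.

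Among relatives of the members, Hsd17b10, a mitochondrial dehydrogenase of isoleucine breakdown, was 352.8 ± 160.0 CPM in controls and 163.0 ± 26.5 CPM in iTgMir483 livers (SD, n = 6; log2 fold change -1.11, adjusted p 0.00839). Hsd17b11, a lipid droplet protein like Hsd17b13, was 346.0 ± 77.8 and 162.1 ± 27.5 CPM (log2 fold change -1.09, adjusted p 0.00109). Hsd3b7, which acts in bile acid synthesis, was 13.1 ± 1.99 and 7.73 ± 0.775 CPM (log2 fold change -0.76, adjusted p 0.00117). These dehydrogenases were lower, while Hsd17b4, of peroxisomal β-oxidation and the most abundant of the family outside the members, was at -0.37 on the log2 scale (adjusted p 0.102). Hsd17b7, which acts in cholesterol synthesis, had a log2 fold change of 0.45 (adjusted p 0.0345), under the fold threshold. Of 8 other reductases tested, Akr1c19 was lower (-0.70, adjusted p 0.0498), and Akr1d1, the 5β-reductase and the most abundant, was at 0.42 (adjusted p 0.104). None of 4 tested genes of steroid synthesis was called by edgeR, DESeq2 or limma-voom, and 0 had an unadjusted p under 0.05; Cyp17a1 was the most abundant of them (log2 fold change 0.53, adjusted p 0.347).

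Of 9 steroid and oxysterol hydroxylases, 3 were lower. Cyp3a11, the main xenobiotic and steroid hydroxylase of the list, was 3405 ± 557.1 CPM in controls and 577.0 ± 233.0 CPM in iTgMir483 livers (SD, n = 6; log2 fold change -2.56, adjusted p 0.000114), with no overlap. Cyp7b1, the oxysterol 7α-hydroxylase, had a log2 fold change of -2.29 (adjusted p 0.00390), and Cyp2d9, a male-biased steroid hydroxylase, of -2.07 (adjusted p 0.0482). Among 9 conjugating enzymes tested, Sult1e1, the oestrogen sulfotransferase, was 2.87 ± 2.73 CPM in controls and 24.5 ± 12.1 CPM in iTgMir483 livers (log2 fold change 3.19, adjusted p 0.00192). It was the 1 steroid gene that was higher, while Sult2a8, a bile acid sulfotransferase, and Ugt2b1, a glucuronosyltransferase, were lower (-1.53 and -1.67, adjusted p 0.0328 and 0.00399). Sult1a1, the most abundant of them, was at -0.12 (adjusted p 0.693).

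**Figure D4:**
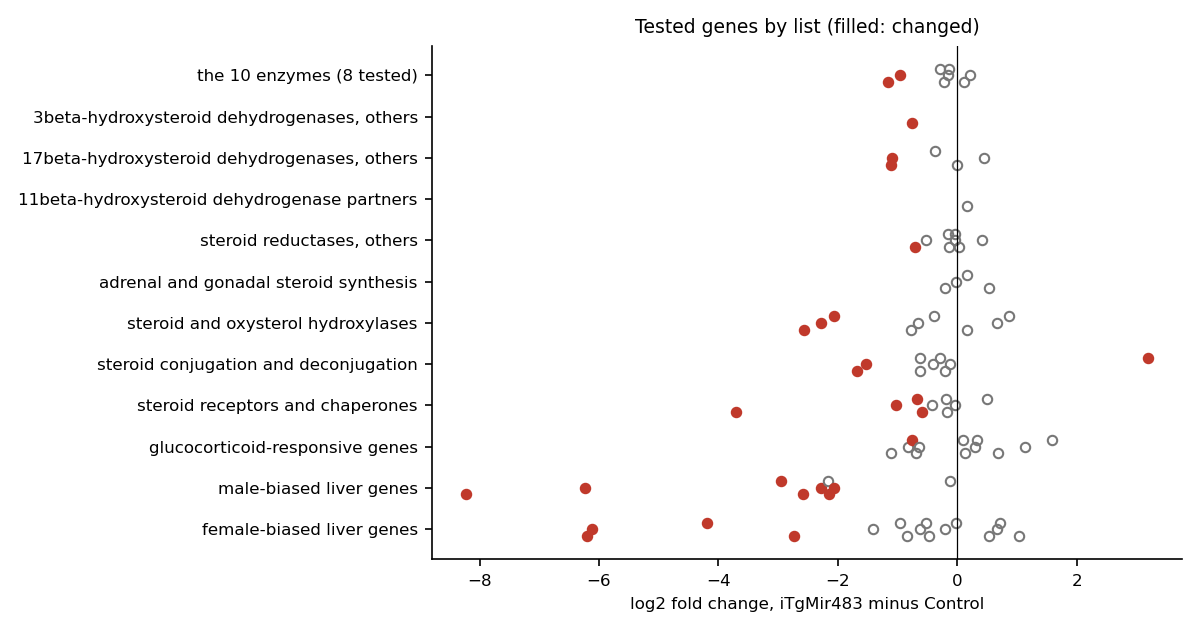
Log2 fold change (iTgMir483 minus Control, horizontal axis) of each tested gene, by list, with changed genes filled and others open; height within a list has no meaning. The filled points of the 10 enzymes lie at -1.16 and -0.96, and the 1 filled point above 0 is Sult1e1 at 3.19.

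Receptors that read these hormones and their chaperones were also measured. Pgrmc2, a membrane-associated progesterone receptor component, and the receptor chaperones Fkbp4 and Hsp90aa1 were lower, by -0.67, -0.59 and -1.03 on the log2 scale (adjusted p 0.000252, 0.0211 and 0.00663). Hsp90ab1, the most abundant of the list, had -0.43 (adjusted p 0.0463), under the fold threshold. The glucocorticoid receptor Nr3c1 did not pass (-0.18, adjusted p 0.287), nor did Serpina6, the corticosteroid carrier of plasma (0.25, adjusted p 0.628). Of 12 genes known to respond to glucocorticoids, 1 was changed, Klf9 (-0.76, adjusted p 0.00523), and Pck1, the most abundant, was at 0.13 (adjusted p 0.743). The edgeR count of 1 is near the share of all genes called (8.33% against 11.1%). DESeq2 called 2 of the 12 and limma-voom 1. At an unadjusted p under 0.05 by edgeR's test, 3 were lower and 2 higher. Over all 13205 genes tested, 1952 were lower and 2460 higher at that threshold.

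Lists of sex-biased liver genes were read beside the enzymes, as several steroid enzymes are among them. Of 9 male-biased genes tested 7 were lower, among them Elovl3, Selenbp2, Slco1a1 and Susd4, with Cyp2d9 and Cyp7b1 as above and Mup7. Elovl3, Selenbp2 and Susd4 had log2 fold changes of -2.96, -2.58 and -2.15, and Slco1a1 had 31 to 2883 counts in controls and 7, 2, 43, 1, 2 and 0 in iTgMir483 replicates 1 to 6. By limma-voom 4 of the male-biased genes were called, and without both replicate 1 libraries edgeR called 8 lower and 1 higher. Of 16 female-biased genes 4 were lower, among them A1bg and Cyp3a44 (-2.73 and -4.20) and Sult3a1; 2 were called by limma-voom, and 7 were lower without both replicate 1 libraries. Cyp2b9, the most abundant of them, was at -0.52 (adjusted p 0.102). Of 11 genes of growth hormone signalling, Igf1 and Igfals were lower (-1.51 and -0.81), Cish was higher (1.07, adjusted p 0.0253), and Hnf4a, the most abundant, was at -0.37 (adjusted p 0.148).

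Markers of other liver cells moved with the groups. All 7 macrophage markers were higher in iTgMir483 livers, and their summed level was 289.8 to 425.3 CPM in controls and 458.0 to 1358 CPM in iTgMir483 livers. Of 5 bile duct markers 3 were higher, Krt7, Epcam and Spp1, with sums of 20.9 to 46.1 and 60.7 to 89.1 CPM. Of 6 tested blood markers 1 was higher, Ptprc, and no stellate or endothelial marker was called by edgeR, although 2 of each had an unadjusted p under 0.05, all higher, and DESeq2 and limma-voom each called 1 stellate marker. Adipocyte markers had at most 35 counts summed in a library. The part of these cells in the values of Hsd17b6 and Akr1c6 was not tested, and in whole liver fewer cells of a type and less RNA per cell cannot be told apart.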

How the data were processed

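Poly(A) RNA libraries of 12 livers were compared as 6 Control and 6 iTgMir483 samples, grouped by sample title. The deposited table holds unnormalised counts of reads for each gene; the authors made stranded libraries, sequenced paired reads of 50 bases, and aligned them with STAR to GRCm38 (submitters' processing notes and methods). The strand setting of the counts is not given in the sources used here, so overlapping genes are uncertain. It had 0 columns outside the 12 samples. GENCODE M21 gave symbols and positions (260 identifiers had none); miRNA and promoter sequences came from RefSeq (GRCm38.p6).

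Genes were kept with filterByExpr, scaled by TMM and compared by the quasi-likelihood test of edgeR 4.0.16 (in R 4.3.3, with limma 3.58.1), and p-values were adjusted over all 13205 genes tested. Fitted fold changes of listed genes whose libraries of a group were mostly at or under the floor (3 counts) are plotted but not printed. Standard errors were derived from F. The fit was also run on simulated counts with the same dispersion for every gene and no library set apart. That run does not cover libraries such as replicate 1, and its outcome is not reported here. Single values were compared by exact permutation with a prior count of 2. Libraries of a group differed beyond sampling noise, so each was counted once. That samples came from separate mice is as the labels number them.

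The members and lists were chosen with earlier results of these data known. Named genes were the members, changed genes of each list and its most abundant gene, Mir483, Igf1 and the 3 transcripts most like each member; Mup genes were named only up to 2, and single markers of other cells mostly by count. A few named by this rule were left unreported but were counted. Alternatives were DESeq2 1.42.0, limma-voom, RLE factors, other filters on counts, other uses of the fold threshold, the replicate number as a block, libraries left out and a prior count of 0.5. Small-RNA reads were not analysed here. Intervals and floors cover counting and fit error only.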

Additional observations from a re-analysis of the deposited data

Results flagged for a closer look

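In 48 groups of 6 values (the 10 enzymes, their Hsd3b sum, library totals and 12 other genes), Dixon's test took the most distant library and divided its gap from the nearest value by the whole range. The ratio exceeded the critical value for 6 samples in 15, and 13 of the 15 concerned replicate 1 of either group. The nominal rate of about 1 in 20 applies to independent, normal values. These were CPM of related genes chosen with earlier results known, so the count is a description and no test.

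Among the enzymes, control replicate 1 stood apart for Hsd3b2 (ratio 0.828; 55.3 CPM against 7.60 to 15.8 CPM), Hsd3b5 (0.995; 30.5 CPM against at most 0.205 CPM), Srd5a1 (0.759; 59.7 CPM against 15.4 to 26.1 CPM) and the Hsd3b sum (0.669; 237.7 CPM against 47.6 to 110.5 CPM). iTgMir483 replicate 1 stood apart for Akr1c6 (0.776; 632.9 CPM against 158.6 to 264.7 CPM) and, through a single count, for Hsd3b6 (1).

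Among other genes, control replicate 1 was the low value of Hsd17b11 (0.668; 198.2 CPM against 347.1 to 421.0 CPM) and the high value of Cyp2d9 (0.777), Ugt2b1 (0.732), Elovl3 (0.714) and Slco1a1 (0.815). iTgMir483 replicate 1 was the high value of Cyp2d9 (0.735) and Ugt2b1 (0.690). The other flags were Slco1a1 in iTgMir483 replicate 3 (0.802; 2.58 CPM against at most 0.510 CPM) and the total of control replicate 4 (0.693; 30431286 counts). No explanation was tested.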

How the results depend on the processing

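Whether equal replicate numbers mark pairs is not given by the labels and was not tested. Deviations of equal-numbered libraries from the group means correlated at 0.034 to 0.440 across genes. The highest value was that of replicate 1, and 2 of the 6 were over 0.1. With the replicate block 1530 genes and 2 enzymes changed by edgeR's quasi-likelihood test, Hsd17b6 (adjusted p 0.00298) and Akr1c6 (adjusted p 0.00153). Hsd17b6 passed under all alternatives but the test against a fold change of 1.5 (adjusted p 0.207), with log2 fold changes from -1.47 to -1.04. That test left 226 genes and 0 enzymes by edgeR, with 2 enzymes at an unadjusted p under 0.05; 2457 genes passed the adjusted p alone. Fits that left out 1 library gave 1190 to 1653 changed genes and 1 to 2 changed enzymes, Akr1c6 being the one lost, and the Hsd3b sum lay between -0.11 and 0.50. The sign of Hsd3b2 turned with limma-voom (0.0083), the replicate block (0.0011) and without both replicate 1 libraries (0.23), and it ranged from -0.48 to 0.55 over the libraries left out. Srd5a1 turned without both replicate 1 libraries (0.15) and ranged from -0.28 to 0.24. Without both, 7 female-biased genes changed against 4. This and the fit without a filter and control replicate 1 were chosen after seeing the data. The causes were not tested. A prior count of 0.5 changed no call. Genes with a few counts, such as Hsd3b5 outside 1 library, are limited by depth.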
